A study of Mus musculus with 11 samples.

Results

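The 7 genes described here are Gadd45a, Gadd45b and Gadd45g, the immediate early response genes Ier2, Ier3 and Ier5, and Arc, out of 54418 genes in the table of counts. They were given as a list of symbols that was selected on measured values of these mice. Early-response genes had been seen to lie higher in both mutant genotypes than in wt thymocytes. The authors reported Arc among the genes that differ between TKO and wt mice. Their differences from wt are therefore given below as a description. No p-value of a member is printed for them, counts of members past a threshold stand beside the share of all genes, and nothing is read from these counts. Tests are given for TKO against Zmat3-/- mice, a contrast that the choice did not itself use. The choice did use values of both mutants, so it could favour genes that are alike in them. All 7 were found by Ensembl identifier, and all 7 passed the filter on low counts in each of the 3 comparisons between genotypes.

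RNA was sequenced from thymocytes, the T cell precursors that make up most of the thymus, in 3 groups of mice that were 8 to 12 weeks old and on a C57BL/6-WEHI background: 4 wt mice, 4 Zmat3-/- mice and 3 mice that lack Puma, p21 and Zmat3 together (Puma-/-p21-/-Zmat3-/-, TKO). Zmat3 encodes an RNA-binding zinc finger protein, Puma (gene symbol Bbc3) a killer protein of the BH3-only class, and p21 (Cdkn1a) an inhibitor of cyclin-dependent kinases, and all of them are induced by the tumour suppressor TRP53. The knockouts are carried by every cell of a mouse, the TKO mice share the loss of Zmat3 with the Zmat3-/- mice, and the labels name no treatment. The comparisons ask what loss of Zmat3, alone or with Puma and p21, does to the thymocyte transcriptome.

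Early-response genes are switched on within minutes of a stimulus by transcription factors that are already present in the cell, and many of their RNAs are short-lived. In thymocytes, signals through the T cell receptor, cytokines and stress all act on them. The GADD45 proteins are small stress-induced proteins that bind the kinase MAP3K4 upstream of p38 and JNK, and also PCNA and the CDK1-cyclin B1 complex. Gadd45a is a TRP53 target, Gadd45b is known as a target of NF-kB and TGF-beta, and Gadd45g as a cytokine-induced gene. IER2 and IER5 are related nuclear proteins, IER5 being known to bind HSF1 and protein phosphatase PP2A, while IER3 is a stress-induced regulator of survival. Arc is best known as an activity-regulated protein of neurons.

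The starts of 5 of the 7 genes had an entry in the RefSeq promoter table (build GRCm38.p6), and they are shown as the sequences that lie in front of the members. No entry was found for Ier2 or Arc. Each sequence holds the bases before the start of transcription, 5′ to 3′ on the strand of the gene, and stops short of the first base that either RefSeq or GENCODE counts as transcribed. Capitals mark CCAAT on either strand and TATAAA on either strand. The windows are chr6:67037458-67037657 (minus strand) for Gadd45a, chr10:80929841-80930072 (plus) for Gadd45b, chr13:51846425-51846674 (plus) for Gadd45g, chr17:35821463-35821683 (plus) for Ier3 and chr1:155099637-155099886 (minus) for Ier5.
Gadd45a: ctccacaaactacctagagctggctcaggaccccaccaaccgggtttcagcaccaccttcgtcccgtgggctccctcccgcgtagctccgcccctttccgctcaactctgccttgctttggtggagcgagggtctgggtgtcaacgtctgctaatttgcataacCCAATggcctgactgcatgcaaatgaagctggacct
Gadd45b: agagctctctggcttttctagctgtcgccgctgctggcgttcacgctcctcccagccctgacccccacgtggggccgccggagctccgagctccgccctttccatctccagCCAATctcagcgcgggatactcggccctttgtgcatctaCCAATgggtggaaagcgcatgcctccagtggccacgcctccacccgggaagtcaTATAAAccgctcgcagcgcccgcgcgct
Gadd45g: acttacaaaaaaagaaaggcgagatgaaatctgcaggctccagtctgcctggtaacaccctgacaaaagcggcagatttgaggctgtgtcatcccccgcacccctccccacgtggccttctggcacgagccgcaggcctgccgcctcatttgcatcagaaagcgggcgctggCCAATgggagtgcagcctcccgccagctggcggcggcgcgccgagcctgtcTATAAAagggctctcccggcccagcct
Ier3: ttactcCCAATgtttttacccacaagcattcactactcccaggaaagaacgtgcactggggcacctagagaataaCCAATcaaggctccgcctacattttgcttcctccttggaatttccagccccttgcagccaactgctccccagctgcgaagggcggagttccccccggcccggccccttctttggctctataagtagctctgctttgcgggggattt
Ier5: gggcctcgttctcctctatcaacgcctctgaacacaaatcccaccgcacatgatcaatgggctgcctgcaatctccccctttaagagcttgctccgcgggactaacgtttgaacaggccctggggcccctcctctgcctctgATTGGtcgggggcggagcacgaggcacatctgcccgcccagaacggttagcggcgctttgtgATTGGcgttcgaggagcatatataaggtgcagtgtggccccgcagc

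In the 250 bases before the RefSeq start, CCAAT was found on one strand or the other in 5 of the 5 windows, and in 33.8% of all 32851 windows of the table. The GC box GGGCGG was found in 4 of the 5, all but Gadd45g, against 32.7% of all windows. TATAAA was found in 2 of the 5, in Gadd45b from base −46 to −41 and in Gadd45g from base −27 to −22 before the start, against 12.4% of all windows. A cyclic AMP response element TGACGTCA (1.55% of all windows), its shorter form TGACG (17.8%, the full element included), the AP-1 site TGANTCA (6.75%) and a CArG box (1.47%) were found in 0 of the 5. A site of the NF-kB type was found in 1, in Ier3 from base −92 to −83, against 7.25% of all windows. All motifs were searched on both strands, and a match of letters is no evidence that a factor binds there.

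Before the members, a split among the wt libraries has to be described, because most of the results below turn on it. The libraries held 17669715 to 80207003 counts, and a level of 3 counts corresponded to 0.0367 to 0.174 CPM (counts relative to library size, with TMM factors). The correlation of log2 CPM with the other mice of the same genotype, a description across genes, had a median of 0.893 to 0.921 among wt mice. Among Zmat3-/- mice it was 0.982 to 0.983 and among TKO mice 0.974 to 0.979. Wt mice 3 and 4 stood apart from wt mice 1 and 2, and which pair is nearer to a usual wt state was not tested. Xist, the RNA made from the inactive X chromosome, was at 501 and 611 CPM in wt mice 1 and 2 but at 1.73 and 2.60 CPM in wt mice 3 and 4. Of the mutants, TKO mouse 1 and the first and second Zmat3-/- mouse were above 100 CPM, and the others were below. The labels give no sex. The 11 thymocyte markers were abundant in every mouse, with a summed level of 12362 to 15488 CPM, and among the markers of other cell types 1 gene (Slc4a1) was at 0 counts in 1 mouse. Against wt, 9 of the 11 thymocyte markers had a negative log2FC in TKO and 9 in Zmat3-/- mice, with a median of −0.20 and −0.26. EdgeR and DESeq2 called 0 of them in either comparison. In edgeR 1 and 3 had an unadjusted p under 0.05, where 10.3% and 16.1% of all genes had. The part of this shift in the members' differences from wt was not tested.

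The summed level of 12 thymic stroma markers was 262 and 244 CPM in wt mice 1 and 2, 165 and 179 CPM in wt mice 3 and 4, 201 to 220 CPM in Zmat3-/- and 178 to 212 CPM in TKO mice. That of 11 myeloid markers was 405 and 425 CPM, 243 and 221 CPM, 300 to 425 CPM and 171 to 479 CPM in the same order, and that of 6 B cell markers 726 and 836 CPM, 499 and 495 CPM, 468 to 510 CPM and 486 to 539 CPM. Low-Xist wt mice thus had lower levels of 10 of 11 measured stroma, 10 of 11 myeloid and 5 of 6 B cell markers than high-Xist wt mice, while 5 of 5 measured erythroid markers were higher (summed level 8696 and 2223 CPM against 1072 and 867 CPM). The median log2 difference was −0.79 for stroma, −0.75 for myeloid, −0.52 for B cell and 2.25 for erythroid markers, and −0.02 over all genes. The part of these differences in the results below was not tested. In bulk RNA, fewer cells of a type and less RNA per cell cannot be told apart.

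The targeted genes had lower mean levels in the mutants but were still counted. Zmat3 was at 6.11 ± 0.718 CPM in Zmat3-/- mice (SD, n = 4) and 7.92 ± 0.355 CPM in TKO mice (SD, n = 3), against 19.1 ± 9.48 CPM in wt mice (SD, n = 4). For Bbc3 the TKO and wt means were 13.6 ± 2.02 and 18.7 ± 1.19 CPM and for Cdkn1a 3.12 ± 0.742 and 6.55 ± 3.17 CPM, and the TKO mice did not overlap the wt mice in Zmat3, Bbc3 or Cdkn1a.

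Per kilobase of exon (RPKM), the order of the members was nearly the same in all mice. Ier2 had the highest level, with a mean of 30.9 RPKM in wt, 41.2 in Zmat3-/- and 38.8 in TKO mice, and it lay above Ier5, the next gene, in 11 of 11 mice. Ier5 had 20.4, 26.5 and 28.0 RPKM, Gadd45a 11.5, 18.7 and 17.9 RPKM, and Gadd45b 8.01, 13.6 and 12.2 RPKM in the same order of genotypes. Arc followed with 3.68, 9.35 and 9.29 RPKM, and Gadd45b lay above it in 10 of 11 mice, the pair of neighbours with the least firm order. Gadd45g had 2.42, 4.12 and 4.52 RPKM and Ier3, the lowest, 0.809, 1.14 and 1.36 RPKM. Every other neighbour kept its place in 11 of 11 mice, so within a mouse the members formed a ladder from Ier2 to Ier3.

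Among the Gadd45 genes, Gadd45a (chromosome 6, 67035096 to 67037457) was at 26.5, 26.1, 12.9 and 15.7 CPM in wt mice 1 to 4. It was at 29.7, 33.8, 31.1 and 37.5 CPM in Zmat3-/- mice 1 to 4 and at 35.0, 30.9 and 28.9 CPM in TKO mice 1 to 3. Each of the 7 mutant mice lay above each of the 4 wt mice, with wt mice 3 and 4 far below the rest. Gadd45b (chromosome 10, 80930073 to 80932204) was at 17.5, 18.7, 5.65 and 9.01 CPM in wt, at 24.3, 22.2, 18.3 and 21.7 CPM in Zmat3-/- and at 23.9, 20.4 and 13.9 CPM in TKO mice. Wt mice 1 and 2 lay within the range of the TKO mice, and the lowest Zmat3-/- mouse lay below wt mouse 2. Gadd45g (chromosome 13, 51846678 to 51848468) was at 4.41, 3.77, 1.73 and 1.46 CPM in wt, at 4.64, 4.42, 4.38 and 5.91 CPM in Zmat3-/- and at 5.81, 5.69 and 4.41 CPM in TKO mice. TKO mouse 3 lay only just above wt mouse 1, and Zmat3-/- mouse 3 just below it.

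The Ier genes showed wt mice 1 and 2 level with the mutants. Ier2 (chromosome 8, 84661331 to 84662852) was at 78.4, 60.2, 24.6 and 25.3 CPM in wt, at 63.0, 65.2, 55.3 and 67.5 CPM in Zmat3-/- and at 61.0, 59.1 and 57.2 CPM in TKO mice. Wt mouse 1 had more Ier2 than each of the 7 mutant mice. Ier5 (chromosome 1, 155096361 to 155099636) was at 101, 88.8, 35.4 and 42.1 CPM in wt, at 86.0, 85.2, 87.8 and 88.5 CPM in Zmat3-/- and at 94.0, 90.5 and 90.2 CPM in TKO mice. The mutant mice of a genotype hardly differed in Ier5, with a coefficient of variation of 1.77% in Zmat3-/- and 2.32% in TKO against 49.2% in wt mice. Ier3 (chromosome 17, 35821684 to 35822923) was at 1.33, 1.27, 0.548 and 0.512 CPM in wt, at 1.34, 1.95, 1.10 and 0.754 CPM in Zmat3-/- and at 1.68, 1.68 and 1.26 CPM in TKO mice. It had the widest spread of the members in Zmat3-/- mice, at a coefficient of variation of 39.1%, and the groups overlapped in all 3 comparisons. Ier3 lies on the same chromosome as Cdkn1a, 6721 kb away from it.

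Arc (chromosome 15, 74669083 to 74672570) was the member with the widest gap between wt and mutant mice. It was at 14.1, 13.0, 9.44 and 8.50 CPM in wt, at 26.6, 26.3, 33.3 and 28.2 CPM in Zmat3-/- and at 25.9, 26.6 and 32.7 CPM in TKO mice. The gap ran from 14.1 CPM in the highest wt to 25.9 CPM in the lowest mutant mouse, and wt mice 3 and 4 were again the lowest. Arc also had the smallest coefficient of variation of the members in wt mice, 24.0%, the other 6 lying between 34.6% and 56.6%.

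**Figure D1:**
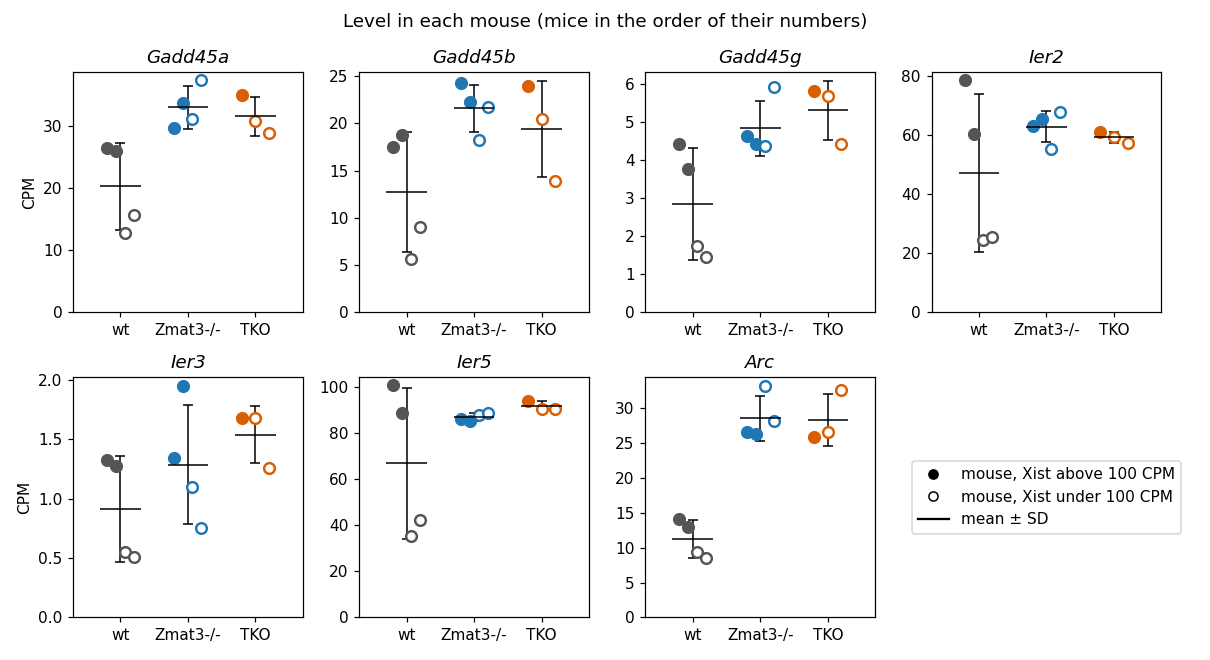
Level of each member in each mouse, in CPM on a linear axis from 0, by genotype. Points are mice, filled where Xist was above 100 CPM and open where it was under 100 CPM, and the lines are the mean ± SD (n = 4 wt, 4 Zmat3-/- and 3 TKO). The 2 open wt points are the lowest of all 11 mice in every panel, whereas only in Gadd45a and Arc do all mutant points lie above all wt points.

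In the pairwise fits across all genes, differential expression (DE) was called where the adjusted p was under 0.05 and the absolute log2FC above 1.5. Between TKO and wt mice, the log2FC of Gadd45a was 0.62 (SE 0.275), of Gadd45b 0.59 (SE 0.423) and of Gadd45g 0.88 (SE 0.422). That of Ier2 was 0.31 (SE 0.415), of Ier3 0.71 (SE 0.442), of Ier5 0.44 (SE 0.367) and of Arc 1.32 (SE 0.211). All 7 were positive with a median of 0.62, where the median over all 13260 tested genes was −0.04. Of the 7 members 0 were called DE, where 0.241% of all genes were called, and 0 were higher at an adjusted p under 0.05 with any fold, where 0.249% of all genes were. At an unadjusted p under 0.05 there was 1 member, Arc, in edgeR, where 10.3% of all genes were. By DESeq2 3 members had an unadjusted p under 0.05, where 13.2% of all genes had. In it 1 member had an adjusted p under 0.05, as had 2.87% of all genes, and 0 were called. The authors, whose DESeq2 model also held sex and surrogate variables, listed Arc as DE between TKO and wt mice. In 3 members, Gadd45a, Gadd45g and Arc, the lowest TKO value exceeded the highest wt value, as in 6.77% of all genes.

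Between Zmat3-/- and wt mice, which share the wt mice with the comparison above, the log2FC was 0.70 (SE 0.238) for Gadd45a, 0.76 (SE 0.347) for Gadd45b and 0.76 (SE 0.363) for Gadd45g. It was 0.41 (SE 0.365) for Ier2, 0.48 (SE 0.427) for Ier3, 0.38 (SE 0.319) for Ier5 and 1.34 (SE 0.182) for Arc. All 7 were positive again, with a median of 0.70 against −0.03 over all 13494 tested genes. The mitochondrial share of the counts was 6.54 to 14.6% in Zmat3-/- and 4.25 to 6.31% in wt mice, which did not overlap, and 3.86 to 9.29% in TKO mice, and its part in the differences was not tested. Of the 7 members 0 were called DE, where 0.319% of all genes were called, and 2 had an unadjusted p under 0.05 in edgeR, where 16.1% of all genes had. DESeq2 also called 0 members. In it 4 members had an unadjusted p under 0.05, where 19.6% of all genes had, and 1 had an adjusted p under 0.05, where 8.04% had. In edgeR, Arc was the 1 member that was higher at an adjusted p under 0.05 with any fold, where 0.4% of all genes were, and it fell short of the fold threshold. It lost this place when wt mouse 3 or any 1 of the 4 Zmat3-/- mice was left out, at a log2FC of 1.26 to 1.38. With the replicate numbers as a block, 0 members had an adjusted p under 0.05, where 0.0889% of all genes had, while the log2FC of Arc was 1.37 (SE 0.199), and the count of all genes called fell from 43 to 8. In 2 members, Gadd45a and Arc, the lowest Zmat3-/- value exceeded the highest wt value, as in 7.05% of all genes. Since the members were chosen with these differences in view, nothing is read from these counts.

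TKO and Zmat3-/- mice differ in Puma and p21 and share the loss of Zmat3. This contrast was not itself used to choose the members, but values of both mutants were. A lack of difference between the mutants is therefore no independent result. None of the 7 passed edgeR's quasi-likelihood test: 0 were called DE, where 0.122% of all 13124 genes were, 0 were higher at an adjusted p under 0.05, where 0.145% were, and 0 had an unadjusted p under 0.05, where 4.50% had. DESeq2 called 0 of them too. The log2FC of Gadd45a was −0.08 (95% interval −0.32 to 0.16), that of Gadd45b −0.18 (−0.58 to 0.23) and that of Gadd45g 0.11 (−0.31 to 0.53). Ier2 had −0.10 (−0.29 to 0.08), Ier3 0.21 (−0.53 to 0.96), Ier5 0.06 (−0.07 to 0.19) and Arc −0.02 (−0.26 to 0.21). The adjusted p from edgeR was 0.983 for 6 members and 0.993 for Arc, and p-values here measure only the spread between these mice. The intervals of Ier2, Ier5, Gadd45a and Arc were narrow and that of Ier3 was wide. In 1 member, Ier5, all TKO mice lay above all Zmat3-/- mice, by a small distance, as in 5.62% of all genes that did not overlap in either direction.

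**Figure D2:**
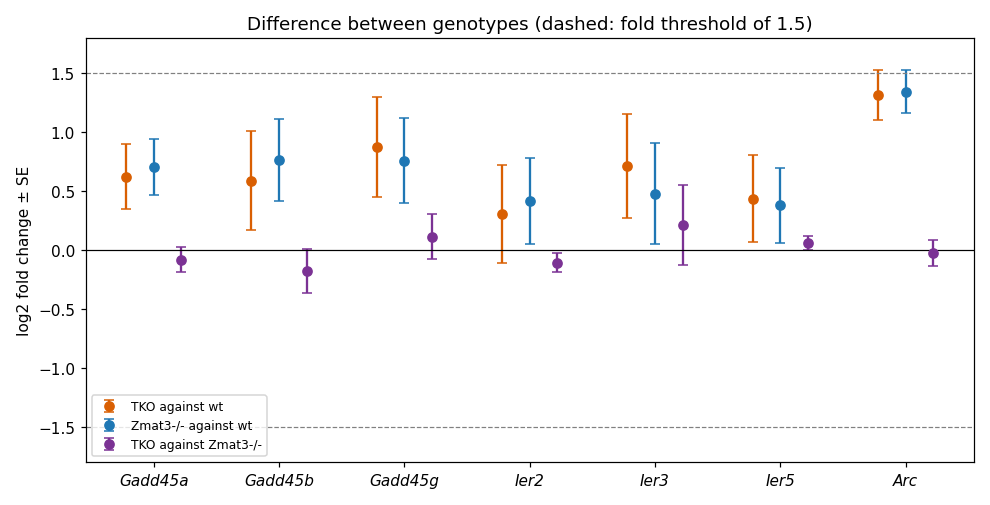
Log2 fold change of each member in the 3 pairwise comparisons, with its standard error from edgeR as the bar. Both comparisons with wt are positive for all 7 members and below the dashed fold threshold of 1.5, with Arc the highest at 1.32 and 1.34, and the comparison of TKO with Zmat3-/- mice lies between −0.18 and 0.21.

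How far the differences from wt rest on wt mice 3 and 4 was then described. Within the wt genotype, the low-Xist mice held 0.363 times the Ier2 level of the high-Xist mice, 0.396 times that of Gadd45b, 0.398 times that of Gadd45g, 0.408 times that of Ier5, 0.432 times that of Ier3, 0.542 times that of Gadd45a and 0.663 times that of Arc. Of all genes, 23.3% had a lower ratio than Arc, 13.4% a lower one than Gadd45a and 3.08 to 6.15% a lower one than each other member. The ratios of the members lay nearer to 1 in the mutants. In Zmat3-/- mice the low-Xist to high-Xist ratio was 0.954 for Ier2, 1.03 for Ier5, 1.08 for Gadd45a, 0.859 for Gadd45b, 1.12 for Gadd45g and 1.16 for Arc, with Ier3 apart at 0.579. In TKO mice, with 1 high-Xist mouse, it lay between 0.704 for Gadd45b and 1.14 for Arc.

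The difference between Zmat3-/- and wt mice was then compared between the Xist classes in one edgeR fit over the 4 wt and 4 Zmat3-/- mice, with 2 mice in each combination. The classes were set after the split of the wt mice had been seen, so the values are a description and no p-value of a member is given. The difference was larger in low-Xist than in high-Xist mice by a log2 of 1.33 (SE 0.136) for Ier5, 1.41 (SE 0.188) for Ier2, 1.54 (SE 0.351) for Gadd45g and 1.08 (SE 0.264) for Gadd45b. It was larger by 0.99 (SE 0.190) for Gadd45a, by 0.81 (SE 0.171) for Arc and by 0.48 (SE 0.541) for Ier3. In this fit 44.2% of all genes had an adjusted p under 0.05 in one direction or the other, so the split of the wt mice reached far beyond the members.

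In low-Xist mice, the log2FC of TKO against wt was 1.04 (SE 0.151) for Gadd45a, 1.20 (SE 0.314) for Gadd45b, 1.64 (SE 0.327) for Gadd45g, 1.20 (SE 0.0994) for Ier2, 1.43 (SE 0.435) for Ier3, 1.20 (SE 0.118) for Ier5 and 1.71 (SE 0.147) for Arc. In high-Xist mice, where 1 TKO mouse stands against 2 wt mice and is assumed to vary as they do, it was 0.41 (SE 0.196), 0.39 (SE 0.211), 0.50 (SE 0.318), −0.19 (SE 0.229), 0.36 (SE 0.559), −0.02 (SE 0.207) and 0.93 (SE 0.216) in the same order. The values of Ier2 and Ier5 in high-Xist mice were thus below 0, and that of Arc was positive in both classes. For Zmat3-/- against wt, the low-Xist and high-Xist values were 1.26 and 0.28 for Gadd45a, 1.44 and 0.36 for Gadd45b, 1.68 and 0.16 for Gadd45g, 1.30 and −0.10 for Ier2, 1.18 and −0.14 for Ier5, and 1.78 and 0.97 for Arc. Ier3 did not pass the filter in the low-Xist mice of this comparison and had 0.34 in the high-Xist mice.

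With wt mice 3 and 4 left out, the median log2FC of the members was 0.22 for TKO and 0.23 for Zmat3-/- mice against wt mice 1 and 2. Arc had 1.06 (SE 0.154) and 1.07 (SE 0.122) and Gadd45a 0.25 (SE 0.137) and 0.32 (SE 0.105) in this order. Ier2 was at −0.24 (SE 0.140) and −0.15 (SE 0.117) and Ier5 at −0.06 (SE 0.113) and −0.14 (SE 0.0740), so that the direction of both turned. The direction of Ier3 turned in Zmat3-/- mice, at −0.01 (SE 0.383), and was kept in TKO mice, at 0.22 (SE 0.376).

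**Figure D3:**
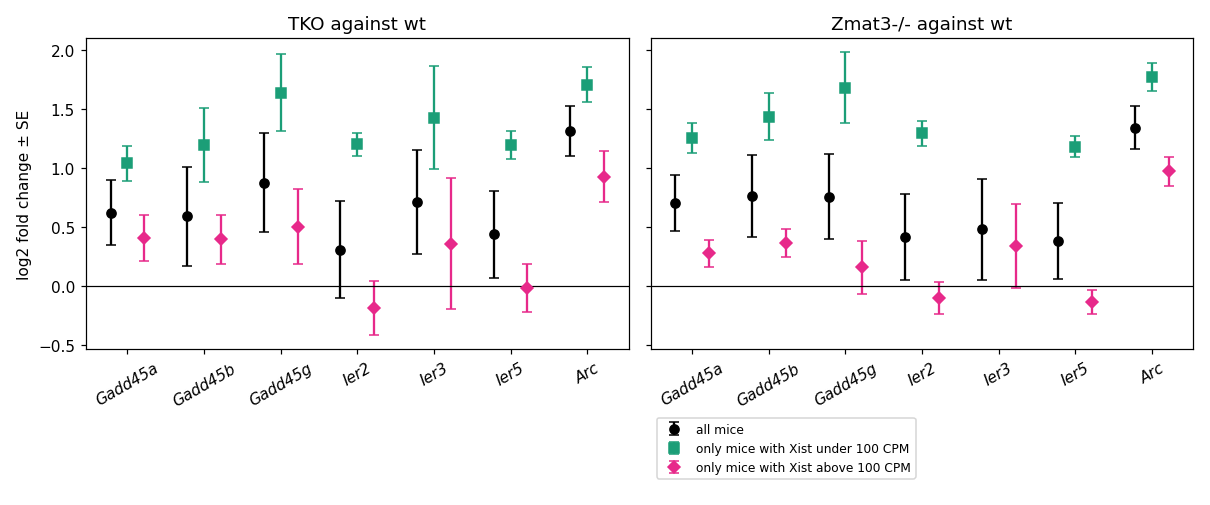
Log2 fold change of each member against wt, with the standard error as the bar, over all mice (circles), in mice with Xist under 100 CPM (squares) and in mice with Xist above 100 CPM (diamonds). The squares lie above the diamonds for each member with both values, the diamonds of Ier2 and Ier5 lie below 0, and the diamonds of Arc lie at 0.93 and 0.97. Ier3 has no square in the right panel because it did not pass the filter there.

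The members followed one another across the 11 mice. Pearson's r of log2 CPM between 2 members, a description over mice that share genotype and library effects, lay between 0.63 for Ier3 with Arc and 0.98 for Ier2 with Ier5, with a median of 0.86 over the 21 pairs. Over the 9 mice other than wt mice 3 and 4 the median was 0.05 and the range −0.55 to 0.76. The highest values over the 9 mice were 0.76 for Gadd45a with Gadd45g, 0.64 for Gadd45a with Arc, 0.55 for Ier2 with Ier5 and 0.55 for Gadd45a with Gadd45b, and the lowest was −0.55 for Ier2 with Arc. Without wt mice 3 and 4, most pairs were thus no longer alike, and the pairs within the Gadd45 family had 0.47 to 0.76.

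The protein-coding genes most like the mean of the members over the 11 mice, of 11922 compared, were Nfil3 (r = 0.971), Atf4 (0.970), Junb (0.969), Fggy (0.960), Zfp36 (0.958), Frat2 (0.957), Fos (0.956) and Jun (0.955). Fos, Jun and Junb encode AP-1 subunits, Nfil3 and Atf4 basic leucine zipper factors, Zfp36 an RNA-binding protein that promotes decay of AU-rich mRNAs, and Frat2 a binding partner of GSK3. Over the 9 mice without wt mice 3 and 4 the values lay between 0.23 for Fggy and 0.81 for Junb.

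Beside the members, 25 other early-response genes were described as a list, which was also written with earlier results known. Against wt, 6 of the 25 were called DE and higher in TKO and 6 in Zmat3-/- mice, where 0.241% and 0.319% of all genes were called. None was called lower, and the median log2FC was 0.97 and 1.12. The log2FC was negative for 6 (TKO) and 5 (Zmat3-/-) of the 25. The same 6 genes were called in both. In TKO against wt mice, Sik1, a salt-inducible kinase, had a log2FC of 3.09 (SE 0.156), Fosb, an AP-1 subunit, 3.84 (SE 0.432), and Klf4, a zinc finger transcription factor, 3.05 (SE 0.291). The MAPK phosphatase gene Dusp1 had 2.37 (SE 0.322), the orphan nuclear receptor gene Nr4a2 2.21 (SE 0.228) and the NF-kB inhibitor gene Tnfaip3 1.95 (SE 0.160). Some of the 6 had no wt split of the kind seen in the members. Sik1 was at 13.2, 16.5, 16.8 and 19.6 CPM in wt mice 1 to 4 and at 111 to 149 CPM in the mutants, and Tnfaip3 at 103, 123, 142 and 141 CPM in wt mice and at 424 to 548 CPM in the mutants. Wt mice 3 and 4 were thus not the lowest for these genes, whereas for Dusp1 they were, at 16.0 and 14.6 CPM against 32.4 and 32.8 CPM in wt mice 1 and 2. With wt mice 3 and 4 left out, the list had 9 genes called higher in TKO and 10 in Zmat3-/- mice, while 0 of the 7 members were called in either, where 5.03% (TKO) and 5.16% (Zmat3-/-) of all genes were called. With the replicate block, 2 of the 25 were called in TKO and 4 in Zmat3-/- mice, where 0.123% and 0.0593% of all genes were called. Between TKO and Zmat3-/- mice edgeR called 0 of the 25, with a median of −0.05. Of the 25, 1 had an unadjusted p under 0.05, where 4.5% of all genes had.

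Other genes of the list shared the wt split with the members. In all, 19 of the 25 were lower in low-Xist than in high-Xist wt mice, with a median ratio of 0.646. As a log2 this median was −0.63, where that over all genes was −0.02. Fos was at 33.1, 39.6, 2.82 and 3.07 CPM in wt mice 1 to 4 and Junb at 215, 183, 32.8 and 31.8 CPM. Both lay higher in each mutant than in each wt mouse, at 130 to 221 CPM for Fos and 504 to 620 CPM for Junb. Jund, at 505, 361, 164 and 167 CPM in wt and 262 to 341 CPM in the mutants, had wt mice 1 and 2 above the mutants and wt mice 3 and 4 below. Btg2, Egr1 and Egr2 lay lower in each mutant than in each wt mouse and were not called. Their log2FC was −0.50 (SE 0.140), −0.32 (SE 0.123) and −0.67 (SE 0.160) in TKO against wt mice. In Zmat3-/- against wt mice it was −0.45 (SE 0.0961), −0.34 (SE 0.0992) and −0.58 (SE 0.127).

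**Figure D4:**
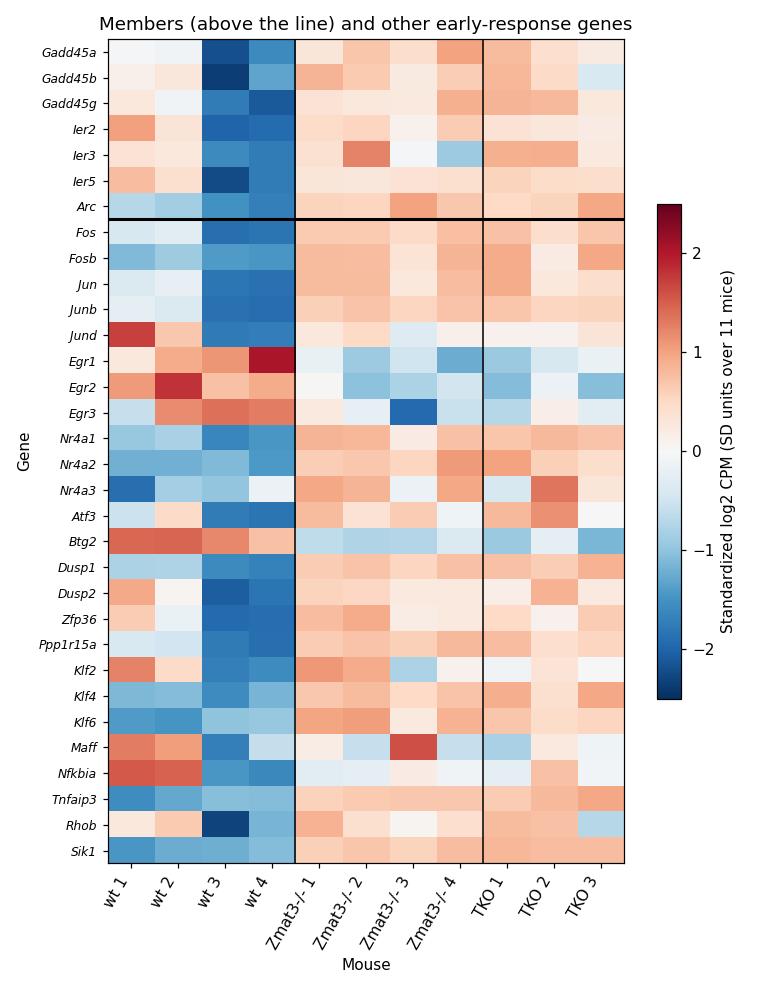
Log2 CPM of the 7 members (above the thick line) and 25 other early-response genes in each of the 11 mice, standardized for each gene to SD units (blue low, red high). The columns of wt mice 3 and 4 are blue for all 7 members, those of wt mice 1 and 2 are pale or red for the members other than Arc, and for Sik1, Tnfaip3 and Nr4a2 all 4 wt columns are blue.

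Of the GADD45 partners and the p38 and JNK kinases, 15 genes were tested against wt and 0 called in either comparison by edgeR or DESeq2. The median log2FC was 0.03 and 0.02. In edgeR 2 (TKO) and 3 (Zmat3-/-) had an unadjusted p under 0.05, where 10.3% and 16.1% of all genes had. The largest values in TKO against wt mice were −0.88 (SE 0.472) for Mapk12 and 0.46 (SE 0.137) for Mapk14, which both encode p38 kinases. Of 9 relatives and partners of the IER proteins 0 were called by either tool, with 0 and 1 at an unadjusted p under 0.05, medians of 0.11 and 0.08 and the largest values 0.57 (SE 0.690) for Ier5l, a relative of Ier5, and −0.35 (SE 0.309) for the kinase gene Mapk3.

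Of 17 upstream regulators 0 were called in either comparison by either tool, and the medians were 0.23 and 0.19. In edgeR 3 and 5 of them had an unadjusted p under 0.05, where 10.3% and 16.1% of all genes had. Foxo3, a forkhead factor, had 0.46 (SE 0.130) and Atf4, a factor of the integrated stress response, 0.42 (SE 0.328) in TKO against wt mice. Of 10 heat shock chaperones, which are targets of the IER5 partner HSF1, 0 were called by either tool, with 3 and 4 at an unadjusted p under 0.05 and medians of 0.59 and 0.27. Hspa1a had 2.91 (SE 1.31) and Hspa1b 2.79 (SE 1.21), and since these genes are near-identical copies, the division of reads between them is uncertain. Their list also followed the wt split, with a summed level of 2953 and 3062 CPM in wt mice 1 and 2, 1766 and 1843 CPM in wt mice 3 and 4 and 2672 to 4148 CPM in the mutants. With wt mice 3 and 4 left out, 2 chaperones were called higher in Zmat3-/- mice and 0 genes of the other 3 lists in either comparison. There 5.03% (TKO) and 5.16% (Zmat3-/-) of all genes were called. In the same fits 5 of 5 erythroid markers were called higher in TKO (median log2FC 1.91) and 3 of 5 in Zmat3-/- mice (1.77), and their part in the other calls was not tested. Between TKO and Zmat3-/- mice edgeR called 0 genes of any of these lists. There 2 chaperones and 0 genes of the other lists had an unadjusted p under 0.05, where 4.5% of all genes had.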

How the data were processed

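RNA-seq counts of thymocytes from 11 mice were used. The authors ran nf-core/rnaseq, in which Salmon gave estimated counts per gene on GRCm38.p6, and deposited them as whole numbers, one column per mouse, without normalization. Genes were named by GENCODE M21 (54166 of 54418 identifiers matched), whose version differs from that of the authors. The members and all lists were chosen with earlier results of these data known. The genes named from the lists are those called in any comparison and otherwise the 2 with the largest absolute log2FC between TKO and wt mice. The 8 most alike genes were named by their correlation, and Jund, Btg2, Egr1, Egr2 and Slc4a1 were named after their values were seen.

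Pairs of genotypes were fitted in edgeR 4.0.16 under R 4.3.3: TMM, quasi-likelihood F-test, Benjamini-Hochberg over all genes tested, two-sided. A gene was tested where its count, brought to the depth of the smallest library, was 20 or more in a number of mice equal to the size of the smaller group. The fits did without Xist, chromosome Y, rRNA and immunoglobulin pseudogenes. SE is the absolute log2FC over the square root of F. The low-Xist and high-Xist classes (boundary 100 CPM), their interaction and the exclusion of wt mice 3 and 4 were chosen after seeing the data. The fits were tested on simulated data, where small changes were recovered less often against wt than between TKO and Zmat3-/- mice. Deviations from the group means of Zmat3-/- and wt mice with the same number correlated at 0.337, 0.127, 0.257 and 0.301, so a fit with the number as a block is given there beside the unpaired one, which gives the values reported. Any pairing comes from these correlations and the labels' numbers, not from a stated design. Differently numbered mice of the same Xist class correlated at 0.157 to 0.377, so number and Xist class cannot be told apart here. Intervals and count floors cover counting error or the spread of these mice only. Alternatives were DESeq2 1.42.0, RLE size factors, other filters, one fit for all genotypes, a replicate block, 1 surrogate variable (sva 3.50.0), the Xist level, and each mouse left out.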

Additional observations from a re-analysis of the deposited data

How the results depend on the processing

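The count of members called DE was 0 in each of the 3 comparisons with every other test, size factor, filter, covariate and left-out mouse. In low-Xist mice alone it was 1 (Arc) in TKO and 2 (Arc and Gadd45g) in Zmat3-/- against wt mice, where 1.07% and 2.64% of all genes were called. All 7 members kept a positive log2FC against wt with these changes, and with wt mice 3 and 4 left out or in high-Xist mice alone those of Ier2 and Ier5 turned, to −0.244 and −0.0644 and to −0.191 and −0.0186 in TKO and to −0.153 and −0.136 and to −0.105 and −0.140 in Zmat3-/- mice, with Ier3 at −0.0132 without wt mice 3 and 4 in Zmat3-/- mice. The cause was not tested. Between TKO and Zmat3-/- mice the values near 0 changed sign for Arc (−0.116 to 0.0630 with each mouse left out, with 0.0630, 0.0272 and 0.0268 without Zmat3-/- mouse 3, TKO mouse 1 or TKO mouse 2), Gadd45a (−0.177 to 0.00917, and 0.144 in high-Xist mice) and Gadd45b (−0.384 to 0.0474, and 0.0409 in high-Xist mice), and for Gadd45g in low-Xist mice (−0.0605).

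The count of all genes called moved more. For TKO against wt it was 32, and 103 with DESeq2 (55 higher), 51 without a filter, 68 in one fit, 16 with the replicate block, 176 with 1 surrogate variable, 15 to 35 with each mouse left out, 731 in high-Xist and 142 in low-Xist mice, and 672 without wt mice 3 and 4. For Zmat3-/- against wt it was 43, and 123 with DESeq2 (64 higher), 73 in one fit, 8 with the replicate block, 215 with 1 surrogate variable, 12 to 47 with each mouse left out, 608 in high-Xist and 363 in low-Xist mice, and 733 without wt mice 3 and 4. For TKO against Zmat3-/- it was 16, and 45 without a filter and 59 in high-Xist mice. Over the changes of processing, Arc had a log2FC against wt of 1.22 to 1.42 (TKO) and 1.33 to 1.43 (Zmat3-/-). With each mouse left out it had 1.21 to 1.44 and 1.23 to 1.47. Its adjusted p was under 0.05 with some of these changes and not with others, the replicate block among the latter. Since Arc was chosen on these contrasts, nothing is read from this. With 1 surrogate variable, 7 members in TKO and 6 in Zmat3-/- against wt mice had an adjusted p under 0.05, as did 17.9% and 37.8% of all genes, and 0 members did between TKO and Zmat3-/- mice. The log2FC of these members stayed under 1.5.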
